A study of Mus musculus with 36 samples.

Results

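The genes described here encode the proteins of the cytosolic ribosome. They were taken as every gene whose symbol in the array's annotation begins with Rpl, Rps or Rplp followed by a number, together with Rpsa, and without the ribosomal S6 kinase genes (Rps6k). The rule found 62 genes among the 9930 genes named on the array. By the letters of the symbol, 35 were grouped with the large (60S) subunit, 24, Rps19bp1 among them, with the small (40S) subunit and 3 (Rplp0, Rplp1 and Rplp2) with the stalk of the large subunit. By name, 56 are core ribosomal proteins and 6 are paralogues or associated genes (Rpl7l1, Rpl22l1, Rpl36al, Rpl39l, Rps27l and Rps19bp1, the last a binding partner of RPS19). Rpl3, Rps3 and Rps27a are not named on the array, so no value is given for them.

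The ribosome translates mRNA into protein, and its proteins are made in matched amounts from many genes scattered over the genome. Their mRNAs are among the most abundant of a growing cell. They begin with a run of pyrimidines, the terminal oligopyrimidine (TOP) motif, through which growth factor and mTOR signalling regulates their translation. Erbb2, a relative of the epidermal growth factor receptor, is a tyrosine kinase at the cell surface that signals to growth through ERK and AKT.

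The samples were NIH3T3 cells, an established mouse fibroblast line, that carried a transfected Erbb2 gene under tet-off control, meaning that tetracycline should switch the transgene off. Total RNA was taken 1, 2, 4, 12 or 24 h or 3, 5 or 7 days after tetracycline, or from untreated Erbb2 cells, and each RNA was hybridised on a 2-colour cDNA array against RNA of untreated Erbb2 cells. All groups, the untreated one included, therefore carried the transgene. There were 4 arrays per group, with the named sample in Cy5 on replicates 1 and 2 and in Cy3 on replicates 3 and 4. Untreated replicates 1 and 2 held the same values up to an offset of 0.771 (SD 0.00051), so they entered as a single array; this leaves 35 arrays, of which 3 are untreated. Nothing in the labels tells if replicates came from separate cultures or if the line is 1 clone, and p-values measure only the spread between arrays, which may be technical. The design text speaks of 2 different untreated lines and the protocols of organs and of a pool of control animals, which the named sources do not; the named sources were followed.

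Each value is a log2 ratio, centred on the array's median and turned so that values above 0 mean more RNA in the named sample. No file states which dye is the numerator, so this direction was assumed. With the other dye as numerator every sign would be reversed, and each fall would read as a rise. That the ratios are by dye, and not already by sample, was a separate assumption. Without turning the Cy3 arrays, the median of the members at 5 days would be 0.15 above the untreated arrays and not 0.82 below them. Between 17508 and 20010 probes per array carried a value. An array gives a signal and no depth, so precision here depends on how many arrays there were and on the spread between them. The arrays of 3, 5 and 7 days were wider than those of 1 to 24 h, with an interquartile range over genes of 0.658 to 1.29 against 0.334 to 0.49, while the untreated arrays, at 0.484 to 0.689, overlapped the narrowest of the late ones. In the arrays of 5 and 7 days the deposited values had slid against the probe list in 4 steps of 1 row and were moved back. On 5d replicate 1 they were 1 row off from the first rows on, and so 5 rows off after the last step. No probe on the array is named Erbb2, so the switching off of the transgene was not checked. All 8 fibroblast markers chosen for checking the cells (Col1a1, Col1a2, Col3a1, Postn, Dcn, Thy1, Vim and S100a4) gave ratios, but a ratio shows a change and not a level, so the cell type could not be checked. Their differences from untreated at 5 days ran from -1.25 to 0.81. At 5 days the differences from untreated of the 4 epithelial markers (Epcam, Krt8, Krt18 and Cdh1) lay between -0.34 and 0.10, and those of 3 leukocyte markers (Ptprc, Cd68 and Lyz2) between -0.21 and 0.04.

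The median of the members shifted between times. On the untreated arrays the median log2 ratio of the members was -0.01 on the Cy5 array and 0.31 and 0.21 on the Cy3 arrays. At 1 h it was -0.12, -0.21, -0.20 and -0.24 on replicates 1 to 4, and at 2 h 0.33, 0.11, 0.20 and 0.31. The members were thus below 0 on all 4 arrays of 1 h and above 0 on all 4 arrays of 2 h.

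At 4 h the 4 medians were 0.11, 0.04, 0.12 and -0.01. At 12 h they were 0.01, -0.11, -0.19 and -0.02, and at 24 h -0.12, -0.10, 0.01 and 0.05. These 3 times stayed close to 0, with arrays on either side of it.

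At 5 days the medians were -0.56, -0.61, -0.56 and -0.58, the most uniform group of the course (SD 0.02, n = 4). At 7 days they were -0.09, -0.21, -0.39 and -0.49. At 3 days the Cy5 arrays stood at -0.55 and -0.58 and the Cy3 arrays at 0.02 and -0.09. The median over all members thus differed between dyes at 3 days and not at 5 days. By subunit, the 5-day medians did differ. The 60S genes stood at -0.43 and -0.39 in Cy5 and at -0.58 and -0.64 in Cy3. The 40S genes stood at -0.72 and -0.68 in Cy5 and at -0.54 and -0.56 in Cy3. On the 4 arrays of 5 days between 48 and 54 members lay below 0, and between 14.4% and 14.7% of all genes lay below the members' median on 3 of these arrays and 15.4% on the other one.

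**Figure D1:**
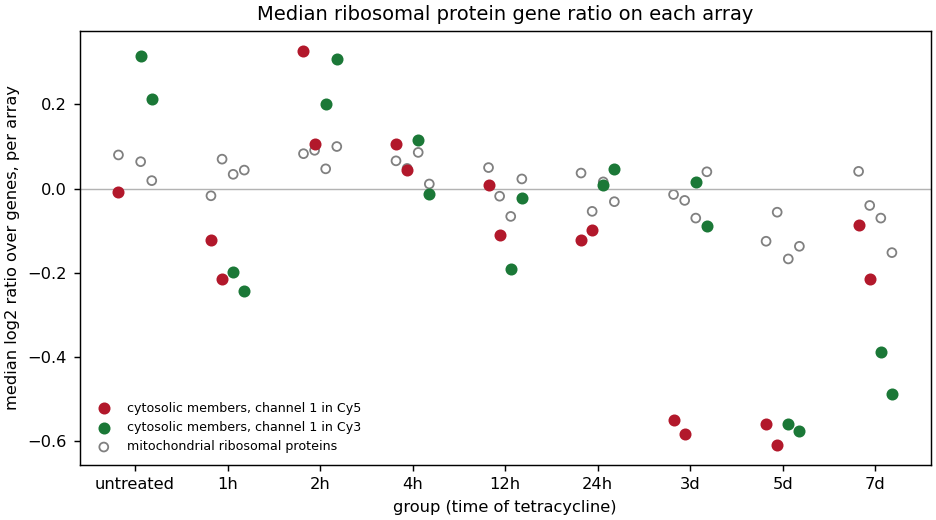
Median log2 ratio over the 62 cytosolic ribosomal protein genes on each of 35 arrays (filled points, coloured by the dye of the named sample), by group. Open points give the median of the 64 mitochondrial ribosomal protein genes on the same arrays. The 4 arrays of 5 days lie between -0.61 and -0.56, and the 3-day arrays split by dye.

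The design sets every time against the untreated cells. All 8 comparisons share the 3 untreated arrays, and so shift together with them. At 5 days 15 members fell and 1, Rpl26, rose, of 60 tested (limma, Benjamini-Hochberg adjusted p under 0.05 over all genes), while 1.58% of all 8984 genes tested were called. The median difference of the members was -0.82, against 0.03 for all genes, and 55 of 60 members (91.7%) lay below 0, against 47.1% of all genes. A lower ratio in bulk RNA cannot tell apart less RNA per cell from fewer cells that make it. In 35 of 60 members all arrays of 5 days lay below all untreated arrays, which held for 4.12% of all genes.

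The calls rest on a spread shared by all 35 arrays. Weights estimated from each array's own spread were 0.113 to 0.595 at 3, 5 and 7 days and 0.969 to 3.62 at 1 to 24 h. A lower weight means a wider spread, so over all genes the shared spread understates that of the late arrays. In a fit on the arrays of 5 days and the untreated arrays alone none of the 60 members passed the adjusted threshold, and none of the 8984 genes did; 36 members had an unadjusted p under 0.05 there and 35 had one in the fit on all arrays. Tested against 0, 29 members fell and 1 rose at 5 days of 61 tested, with 4.89% of all genes called. The member median was -0.63. That test subtracts no untreated mean, but the untreated arrays still enter its dye effect and its spread. Of the 3 untreated arrays, leaving out replicate 4 left 8 calls at 5 days, leaving out replicate 3 left 10, and leaving out replicate 1 gave 19, while 0.67%, 0.939% and 4.29% of all genes were called. When arrays were not centred, 8 of the 16 calls were kept and 1 added (0.824% of all genes called), and after quantile normalisation 12 were kept and 3 added (1.04%).

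At 7 days 4 members fell of 59 tested (Rpl13a, Rpl19, Rplp0 and Rps28; 1.07% of all genes were called) and none rose. The median difference was -0.50, against 0.02 for all genes, and 51 of 59 members lay below 0. At 3 days 2 members fell of 60 tested (Rpl13a and Rps28; 0.5% of all genes were called), with a median of -0.46. All arrays of the time lay below all untreated arrays in 19 of 59 members at 7 days (3.29% of all genes) and in 8 of 60 at 3 days (2.38%). The 3-day count was 10 without replicate 3 of that group and 6 without replicate 4, both Cy3 arrays, and was 1 without untreated replicate 3 or 4 and 10 without untreated replicate 1. Of all genes, 1.09%, 0.645%, 0.151%, 0.128% and 3.73% were called in these fits in turn. The 7-day count was 1 without untreated replicate 3 or 4, 2 without 7d replicate 4 and 9 without untreated replicate 1, with 0.607%, 0.448%, 0.97% and 3.69% of all genes called in turn. Quantile normalisation left none of the members called at 3 days by limma (26 at an unadjusted p under 0.05; 0.0114% of all genes called) and Rpl13a alone at 7 days (0.159%). Without centring, Rpl13a stayed called at 3 days (0.125%) and Rpl13a and Rps28 at 7 days (0.398%).

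At 1 h limma called none of 59 members (0.25% of all genes were called), although 16 had an unadjusted p under 0.05 and the median was -0.34. In 21 of the 59, all 4 arrays of 1 h lay below all untreated arrays, against 3.79% of all genes. Against 0, where no untreated mean is subtracted, the median at 1 h was smaller in size, -0.17. There 1 member was called lower and 1 higher, of 60 tested, with 0.763% of all genes called. With arrays weighted by their own spread, 16 members were called lower and 1 higher at 1 h, with 4.76% of all genes called. Quantile normalisation called 9 lower (0.967% of all genes) and leaving out untreated replicate 1 called 5 lower (1.84%).

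None of the members was called by limma at 2 h (61 tested, 0.527% of all genes called), 4 h (61 tested, 0.257%), 12 h (59 tested, 0.0218%) or 24 h (59 tested, 0.0219%). Unadjusted p-values under 0.05 were found for 4, 2, 7 and 6 members at these times. With arrays weighted by their own spread, 4, 5, 10 and 9 members were called, with 8.13%, 3.9%, 3.16% and 3.76% of all genes, and quantile normalisation called 2 at 12 h (0.164%). The medians were 0.07, -0.08, -0.26 and -0.22. The median at 2 h was -0.02 after quantile normalisation. All arrays lay below all untreated arrays in none of the members at 2 h, 3 at 4 h, 6 at 12 h and 8 at 24 h, against 3.35%, 2.49%, 2.75% and 2.72% of all genes. Against 0, the medians at 12 h and 24 h were -0.09 and -0.04.

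**Figure D2:**
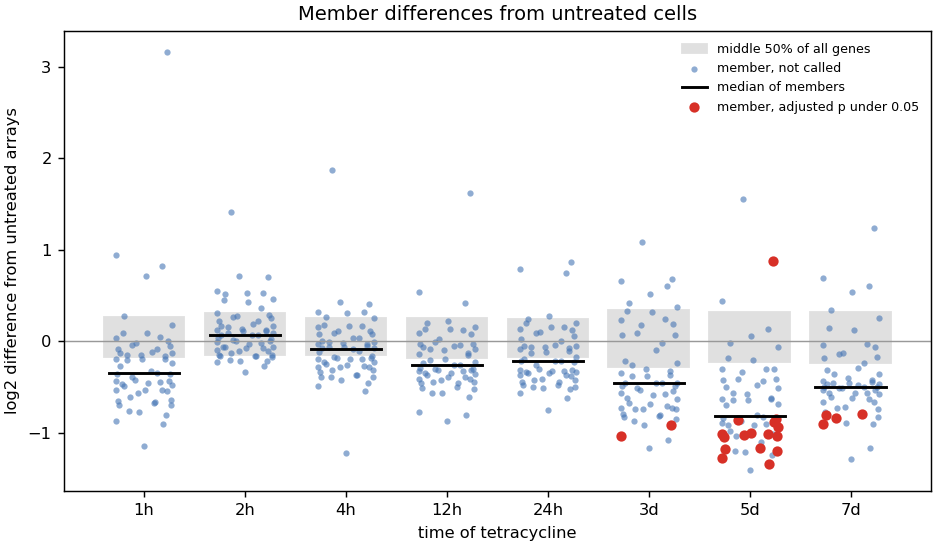
Log2 difference of each tested member from the untreated arrays at the 8 times. Blue points were not called, red points had an adjusted p under 0.05, black lines mark the members' median and grey boxes span the middle 50% of all genes. At 5 days the members' median of -0.82 lies below the box, and the single red point above 0 is Rpl26.

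Promoters of members called at 5 days are shown next, because ribosomal protein genes share short sequence features near their start. RefSeq promoter windows (GRCm38.p6, 250 bases before to 50 after the annotated start) matched 53 of the 62 members. The heptamer CCGGAAG, which holds the core recognised by ETS-family factors, was found on either strand in 23 of 53 members (43.4%) and in 9.93% of all 27025 genes with a window. The pyrimidine run CTCTTTC was found on either strand in 14 of 53 (26.4%), against 9.28%, and AAGATGG, which holds the core of the YY1 motif, in 9 of 53 (17.0%), against 7.28%. The AAG that ends CCGGAAG also begins AAGATGG, so matches to these can overlap. Of 23 members with a window that fell in any comparison, 12 held CCGGAAG, 8 CTCTTTC and 5 AAGATGG. A match is a run of letters and not a shown binding site.

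The following stretches run from 60 bases before to 20 bases after the annotated start on the gene's strand, 5′ to 3′, with matches to these heptamers on either strand in capitals. For Rpl38 the start used lies inside the gene, which is annotated from chr11:114667818. The first 7 genes fell at 5 days and the last, Rpl26, rose.
Rplp0: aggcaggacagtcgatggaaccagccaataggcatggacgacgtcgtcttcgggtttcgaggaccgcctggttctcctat
Rpl13a: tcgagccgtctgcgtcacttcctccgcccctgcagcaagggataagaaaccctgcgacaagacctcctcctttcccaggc
Rps28: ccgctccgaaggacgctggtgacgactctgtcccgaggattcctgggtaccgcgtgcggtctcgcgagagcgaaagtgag
Rps26: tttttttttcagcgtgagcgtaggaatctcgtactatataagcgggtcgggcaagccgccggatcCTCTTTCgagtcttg
Rpl38: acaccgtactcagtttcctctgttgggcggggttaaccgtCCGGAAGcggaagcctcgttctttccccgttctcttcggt
Rps10: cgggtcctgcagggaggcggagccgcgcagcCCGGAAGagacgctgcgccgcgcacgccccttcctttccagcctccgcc
Rps7: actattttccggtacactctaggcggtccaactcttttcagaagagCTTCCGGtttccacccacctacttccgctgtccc
Rpl26: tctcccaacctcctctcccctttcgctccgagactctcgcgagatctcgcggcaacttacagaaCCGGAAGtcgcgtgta

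They lie at chr5:115559407-115559486 on the plus strand (Rplp0), chr7:45128726-45128805 on the minus strand (Rpl13a), chr17:33824543-33824622 on the minus strand (Rps28) and chr10:128626487-128626566 on the minus strand (Rps26). Rpl38 lies at chr11:114668520-114668599 on the plus strand, Rps10 at chr17:27635225-27635304 on the minus strand, Rps7 at chr12:28635934-28636013 on the minus strand and Rpl26 at chr11:68901506-68901585 on the plus strand. Rpl38 and Rps10 carry CCGGAAG in the stretch shown and Rps7 carries it on the other strand. Rpl26, which rose, carries it too.

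The stalk proteins recruit translation factors to the large subunit. Rplp0, which anchors the stalk, had log2 ratios of 0.01, 0.03 and 0.16 on the untreated arrays, and of -0.81, -0.66, -0.73 and -0.91 at 5 days. At 7 days it had -0.68, -0.57, -0.78 and -0.93, and at 2 h 0.53, 0.34, 0.57 and 0.63. The late arrays of 5 and 7 days lay below every untreated array and the arrays of 2 h above every one.

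Rplp0 fell by 0.85 at 5 days (SE 0.14, adjusted p = 0.00103, 1.81-fold lower, limma) and by 0.81 at 7 days (SE 0.14, adjusted p = 0.00255). The 7-day call was lost without centring (adjusted p = 0.0613) and after quantile normalisation (0.0928). Its difference at 2 h was 0.45 and did not pass. Its 2 probes were both low, with differences of -0.72 and -0.99 at 5 days. Both lie close to a point where the 5- and 7-day values had slid and been moved back, and in the values as deposited the gene stood 0.57 above the untreated arrays at 5 days.

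Rplp1 and Rplp2, the acidic proteins that bind to Rplp0, did not pass. Rplp1 had 0.21, 0.19 and 0.16 on the untreated arrays and -1.91, -1.17, -1.42 and 0.14 at 5 days, with a difference of -1.24 (SE 0.54, adjusted p = 0.387, limma). Rplp2 had -0.01, 0.41 and 0.44 on the untreated arrays and -0.36, -0.78, 0.20 and -0.60 at 5 days, with a difference of -0.64 (adjusted p = 0.458). On both genes 1 array of 5 days overlapped or neared the untreated range.

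Among the 60S proteins, 34 were tested at 5 days, of which 7 fell and 1 rose, with a median of -0.63. Rpl13a, also known as the subunit that silences inflammatory mRNAs once released from the ribosome, was called at all 3 late times. It had 0.08, 0.46 and 0.49 on the untreated arrays, -0.85, -0.48, -0.57 and -0.79 at 3 days and -1.03, -0.81, -0.79 and -0.998 at 5 days. All 8 of these late arrays lay below all untreated arrays.

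Rpl13a fell by 1.04 at 3 days (SE 0.16, adjusted p = 0.00357, limma), by 1.28 at 5 days (adjusted p = 3.34e-05, 2.42-fold lower) and by 0.79 at 7 days (adjusted p = 0.00817). The 3-day call was lost after quantile normalisation (adjusted p = 0.0501). At 7 days the arrays split, with 0.03 and -0.21 in Cy5 and -0.72 and -0.80 in Cy3, and the call was lost without untreated replicate 3 (adjusted p = 0.065) or 4 (adjusted p = 0.0819). Its 2 probes gave -1.09 and -1.46 at 5 days. At 3 days they split by dye in opposite directions. The first had -1.07, -0.70, 0.03 and -0.47 on replicates 1 to 4, and the second -0.63, -0.265, -1.16 and -1.10. The gene's even values at 3 days are means over these.

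Rpl19, whose long helix reaches across to the small subunit, had -0.07, 0.62 and 0.42 on the untreated arrays and -0.61, -0.67, -0.97 and -1.06 at 5 days, with no overlap. It fell by 1.17 at 5 days (SE 0.23, adjusted p = 0.00352, limma) and by 0.91 at 7 days (adjusted p = 0.0384). The 7-day call was lost without 7d replicate 3 (adjusted p = 0.115) or 4 (0.125) and without untreated replicate 3 (0.268) or 4 (0.192), as well as without centring (0.0923) and after quantile normalisation (0.08).

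Rpl5 and Rpl11 bind the 5S rRNA together and, when not built into ribosomes, restrain the ubiquitin ligase Mdm2. Rpl5 had 0.04, 0.54 and 0.50 on the untreated arrays and -0.40, -0.44, -0.87 and -0.93 at 5 days. It fell by 1.01 (SE 0.23, adjusted p = 0.017, limma), a call lost without 5d replicate 3 (adjusted p = 0.068) or 4 (0.0689) or untreated replicate 3 (0.109) or 4 (0.114), or without centring (0.0546). Its partner Rpl11 had 0.55, -0.78 and 0.45 on the untreated arrays and 0.43, -0.01, -1.09 and -1.06 at 5 days, so the groups overlapped (difference -0.64, adjusted p = 0.788). The probes of Rpl11 disagreed, at -1.10 and -0.13. The first had -0.15, 0.46 and 0.55 on the untreated arrays and -0.585, -0.48, -1.09 and -1.06 at 5 days, without overlap. The second had no value on 5d replicates 3 and 4, so the gene's values there come from the first alone. A difference between Rpl5 and Rpl11 was not tested.

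Rpl38, a protein known for its part in the translation of homeobox mRNAs, had -0.05, 0.26 and 0.37 on the untreated arrays and -0.38, -0.75, -0.92 and -1.20 at 5 days. It fell by 1.01 (SE 0.23, adjusted p = 0.0175, limma). Its single probe lies next to a slide point and went untested when a wider band of rows was left out there. The call was lost without 5d replicate 3 or 4 (adjusted p = 0.0515 and 0.0742) or untreated replicate 3 or 4 (0.0926 and 0.137), without centring (0.0532) and after quantile normalisation (0.0506).

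Rpl39, a small protein at the exit of the peptide tunnel, had -0.01, 0.37 and 0.60 on the untreated arrays and -0.43, -0.56, -0.95 and -0.88 at 5 days. It fell by 1.04 (adjusted p = 0.00287, limma; 0.0536 without untreated replicate 4). Rpl31, which lines the same exit, fell by 0.94 (adjusted p = 0.0262) and Rpl36a by 0.86 (adjusted p = 0.0338). Both of the latter calls were lost without 5d replicate 3 or 4 or untreated replicate 3 or 4, with adjusted p-values of 0.0593 to 0.25, and that of Rpl36a also without 5d replicate 1 (0.0542) or 2 (0.0574). Without centring both calls were lost (0.0551 and 0.0951), and after quantile normalisation that of Rpl36a was (0.0627). With the exception of Rpl26, the called 60S genes at 5 days had no array above 0.

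Of the 60 members tested at 5 days, 5 had a difference above 0, and of these only Rpl26 was called. This protein, also known to bind the p53 mRNA, had -0.01, 0.38 and 0.42 on the untreated arrays and 1.16, 1.55, 0.89 and 1.09 at 5 days, so every 5-day array lay above every untreated one. It rose by 0.87 (SE 0.16, adjusted p = 0.00207, limma). The call was lost when arrays were not centred (0.65, adjusted p = 0.209) or were quantile normalised (0.48, adjusted p = 0.205). The ratios at 1 h, of 0.63, 0.64, 0.58 and 0.45, also lay above the untreated arrays, and the difference of 0.27 there was not called. The gene has 1 probe on the array, so no second probe could be set against it.

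Rpl23 had the highest values, but they came from arrays that disagreed. Its single probe gave -0.23, -1.75 and -2.75 on the untreated arrays and -0.57, -2.14, 5.04 and 2.91 at 1 h, with a difference of 3.16 that was not called. The Cy5 and Cy3 arrays lay on opposite sides of 0 at 1 h, and some arrays carried no value at other times. Rpl22, whose protein also acts in the development of T cells, had -0.16, 0.03 and -0.27 on the untreated arrays and -1.14, -0.40, -0.42 and 0.12 at 5 days (difference -0.30, adjusted p = 0.731, limma).

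Among the 40S proteins, 7 of 23 tested at 5 days fell and none rose by limma's adjusted p (16 had no call), with a median of -0.87 (-0.88 without Rps19bp1, which was not called). Rps28, near the path of the mRNA through the small subunit, had the largest fall of a called member at 5 days. It had -0.11, 0.61 and 0.47 on the untreated arrays, -0.58, -0.66, -0.53 and -0.52 at 3 days and -0.84, -1.06, -1.08 and -1.03 at 5 days. At 7 days it had -0.08, -0.55, -0.55 and -0.80, and there 1 array entered the untreated range.

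Rps28 fell by 0.92 at 3 days (SE 0.19, adjusted p = 0.0186, limma), by 1.35 at 5 days (adjusted p = 0.000132, 2.55-fold lower) and by 0.84 at 7 days (adjusted p = 0.0198). The calls at 3 and 7 days were lost without untreated replicate 3 (adjusted p = 0.144 and 0.204) or 4 (0.156 in both), and that at 7 days without 7d replicate 2 (0.0514) or 4 (0.0725). Quantile normalisation ended both (0.305 and 0.144), and not centring ended that at 3 days (0.0828). Its 2 probes gave -1.18 and -1.52 at 5 days. The first of these lies close to a slide point, and in the values as deposited the gene's 5-day difference turned sign. The 5-day call held when a wider band of rows was left out at the slide points.

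Rps26, a protein at the mRNA exit channel, was measured by 3 probes that gave -1.26, -1.25 and -1.04 at 5 days. Its gene mean was 0.03, 0.36 and 0.26 on the untreated arrays and -0.96, -0.97, -1.04 and -0.88 at 5 days. It fell by 1.18 (SE 0.22, adjusted p = 0.00209, limma). At 1 h it was also low, at -0.47, -0.56, -0.45 and -0.45, below every untreated array, while the difference of -0.70 there was not called.

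Rps20, of the small subunit's head, had 0.18, 0.53 and 0.01 on the untreated arrays and -0.81, -0.62, -1.003 and -1.31 at 5 days, and fell by 1.21 (adjusted p = 0.00103, limma). Rps29, a zinc-binding protein of the head, had 0.03, 0.31 and 0.16 and then -1.07, -0.66, -0.80 and -0.79, and fell by 1.02 (adjusted p = 0.00167). Both kept their 5-day call whichever single array was left out, and that of Rps29 was lost after quantile normalisation (adjusted p = 0.0792).

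Rps7 and Rps10, both of the small subunit, were lowest on the Cy5 arrays. Rps7 had -0.19, 0.73 and 0.65 on the untreated arrays and -0.93, -0.96, -0.42 and -0.48 at 5 days, and fell by 1.05 (adjusted p = 0.0108, limma). Rps10 had 0.03, 0.34 and 0.27 and then -0.88, -0.88, -0.55 and -0.56, and fell by 0.88 (adjusted p = 0.012). Rps3a1 had 0.11, 0.69 and 0.68 and then -0.55, -0.65, -0.40 and -0.54, and fell by 1.02 (adjusted p = 0.0153). In these 3 genes no 5-day array reached the untreated range, and all 3 calls were lost without untreated replicate 3 or 4, at adjusted p-values between 0.054 and 0.111, and without centring, at 0.0738 to 0.084.

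Rps6, the substrate of the S6 kinases, did not pass at 5 days. It had 0.24, 0.46 and 0.45 on the untreated arrays and -0.88, -0.37, -0.45 and -0.38 at 5 days, with a difference of -0.90 (SE 0.26, adjusted p = 0.0812, limma). The groups did not overlap. Rps19, the gene first linked to Diamond-Blackfan anaemia, had -0.11, 0.87 and -0.09 on the untreated arrays and -1.43, -1.36, -0.44 and -0.34 at 5 days, with a difference of -1.02 that did not pass (adjusted p = 0.156).

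The members at the ends of the range were set by their mean difference over the 8 times, among the 56 tested at all 8. Rps3a1, Rps28 and Rps15a were lowest, at -0.70, -0.68 and -0.66. Rps12, Rpl26 and Rps15 were highest, at 0.34, 0.33 and 0.24. Rps15a had a difference of -1.21 at 5 days that did not pass (adjusted p = 0.0571, limma). Rps12 and Rps15 had -0.48 and -0.41 at 5 days with no call at any time, so their high rank came from the other times. A probe of Rps12 had no value on untreated replicates 1 and 3. It gave 3.10 at 1 h and 5.87 at 24 h, where the gene's other probe gave 0.15 and 0.12. At 3 days these probes gave 1.28 and 1.02.

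The paralogues were measured unevenly. Rpl22l1, the paralogue of Rpl22, had -0.48, -3.77, -0.22 and -0.17 at 5 days, and its difference was -1.41 with 1 array far from the others (adjusted p = 0.156, limma). Rps27l, a p53 target, was left untested at 5 days because 3 of its 4 values were missing. Rpl36al and Rpl7l1 had differences of -0.90 and 0.06 at 5 days and no call.

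**Figure D3:**
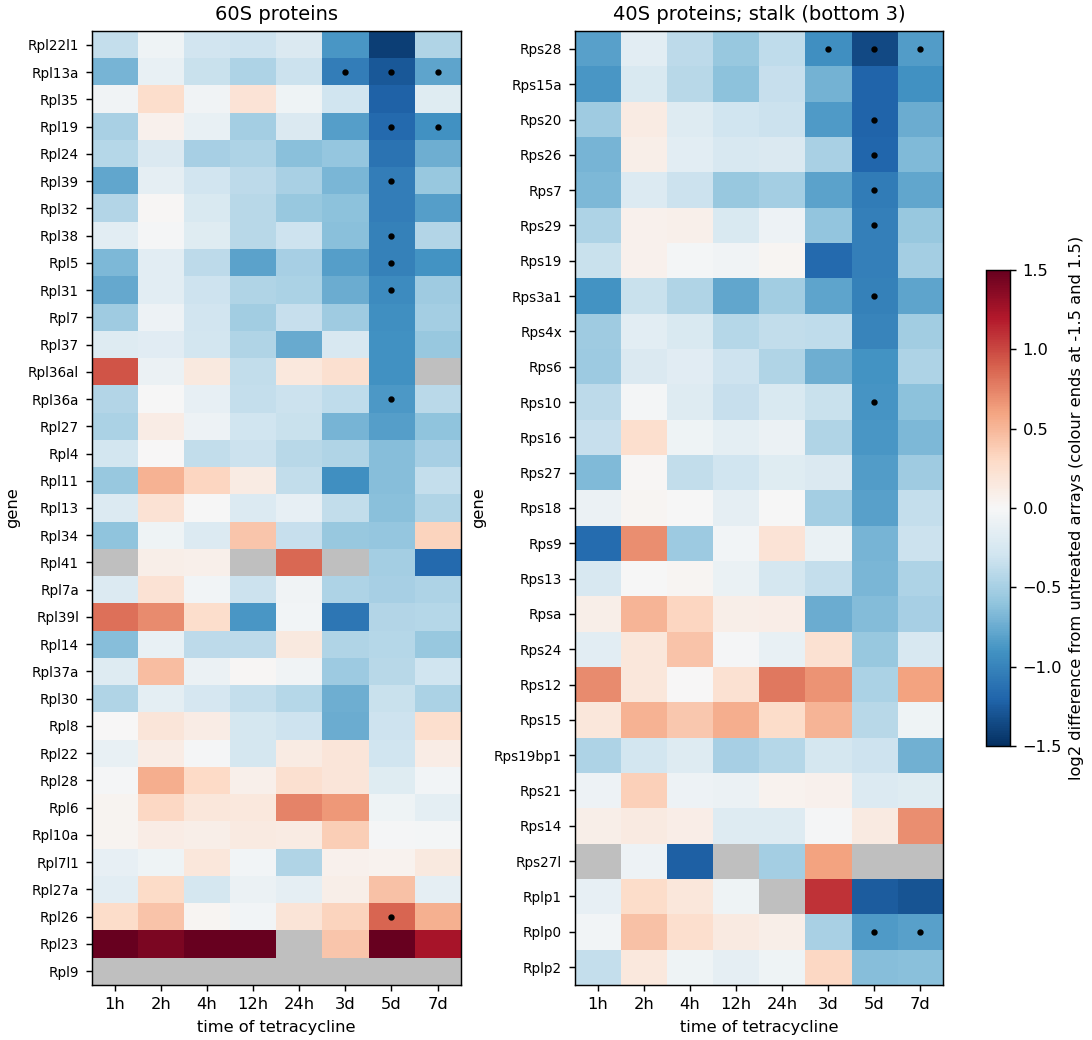
Log2 difference from the untreated arrays for the 62 members at the 8 times, with 60S proteins on the left and 40S and stalk proteins on the right, each sorted by the value at 5 days. Dots mark an adjusted p under 0.05, grey cells were not tested, and colours end at -1.5 and 1.5, so the larger values of Rpl23 show as the end colour.

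The late part of the course was also set against the early part, as the mean of 3, 5 and 7 days minus the mean of 1, 2 and 4 h. This comparison uses no untreated mean, though the untreated arrays enter the dye effect and the spread of its fit. Of 59 members tested, 24 fell and 1 rose (limma), and 6.7% of all 8340 genes tested were called (4.23% as lower). The median was -0.40, against 0.00 for all genes, and 52 of 59 members lay below 0, against 50.3% of all genes. In a fit without the untreated and the 12- and 24-h arrays 21 members were called. The share of all genes called in that fit was not counted, so the 21 cannot be set against it. Of the 25 calls, 14 were kept without centring (3.91% of all genes called) and 17 after quantile normalisation (7.53%). Those of Rpl5, Rpl26, Rpl32, Rpl35, Rpl39 and Rps7 were lost under both, those of Rpl13, Rpl27, Rps10, Rps13 and Rps16 without centring only, and those of Rpl9 and Rps28 after quantile normalisation only. The early arrays of 1 h and 2 h lay on opposite sides of 0, so the early mean averages over them.

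Rplp0 fell by 0.94 in this comparison (SE 0.08, adjusted p = 4.6e-10, limma). Rpsa, a small-subunit protein also known as the laminin receptor, fell by the same amount (SE 0.17, adjusted p = 0.000416). Rpsa had 0.53, 0.44, 0.55 and 0.61 at 2 h, -1.56, -1.95, 0.15 and 0.49 at 3 days and -0.72, -0.68, -0.54 and -0.57 at 5 days. Its values at 3 days split by dye, and its difference from untreated at 5 days, of -0.65, did not pass.

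Rps19 fell by 0.80 (adjusted p = 0.00423, limma), Rpl19 by 0.79 (adjusted p = 2.7e-05), Rps20 by 0.74 and Rpl13a by 0.66. Rps29, Rps16, Rpl32 and Rpl35 fell by 0.62, 0.61, 0.61 and 0.61. Rps28, Rpl38, Rpl27, Rps18 and Rps26 fell by 0.58, 0.57, 0.56, 0.54 and 0.52.

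Smaller falls were found for Rpl5 (0.50), Rpl13 (0.49), Rps7 (0.48), Rpl7a (0.47), Rps13 (0.43), Rps10 (0.40), Rpl9 (0.40) and Rpl39 (0.37). In the fit on all arrays Rpl9 was not tested against untreated, because 1 of its 3 untreated values was missing and 3 were required. Against 0 it was called lower at 1 h and at 3, 5 and 7 days. Its 4 arrays of 1 h had -0.40, -0.50, -0.49 and -0.50 and its 4 arrays of 5 days -0.56, -0.56, -0.53 and -0.83. Rpl26 rose by 0.34 (adjusted p = 0.0115, limma), and after quantile normalisation it stood at -0.11 and did not pass.

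Rpl39l, the paralogue of Rpl39 best known from the testis, had the largest fall in this comparison, 1.25 (SE 0.33, adjusted p = 0.0182, limma). Its early values held 1 array at 2.98 (1h replicate 3), and the call held without it. At 3 days the gene had 3 values, so it was not tested without 3d replicate 2, 3 or 4. The calls of Rpl35 and Rpl39 were lost without 4h replicate 1 (both adjusted p = 0.0557), 5d replicate 3 (0.0593 and 0.0519) or 7d replicate 4 (0.0547 and 0.05). That of Rpl35 was also lost without 1h replicate 3 (0.0519), 2h replicate 4 (0.0527) or 5d replicate 1 (0.0508), and that of Rpl39 without 4h replicate 2 (0.0523).

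**Figure D4:**
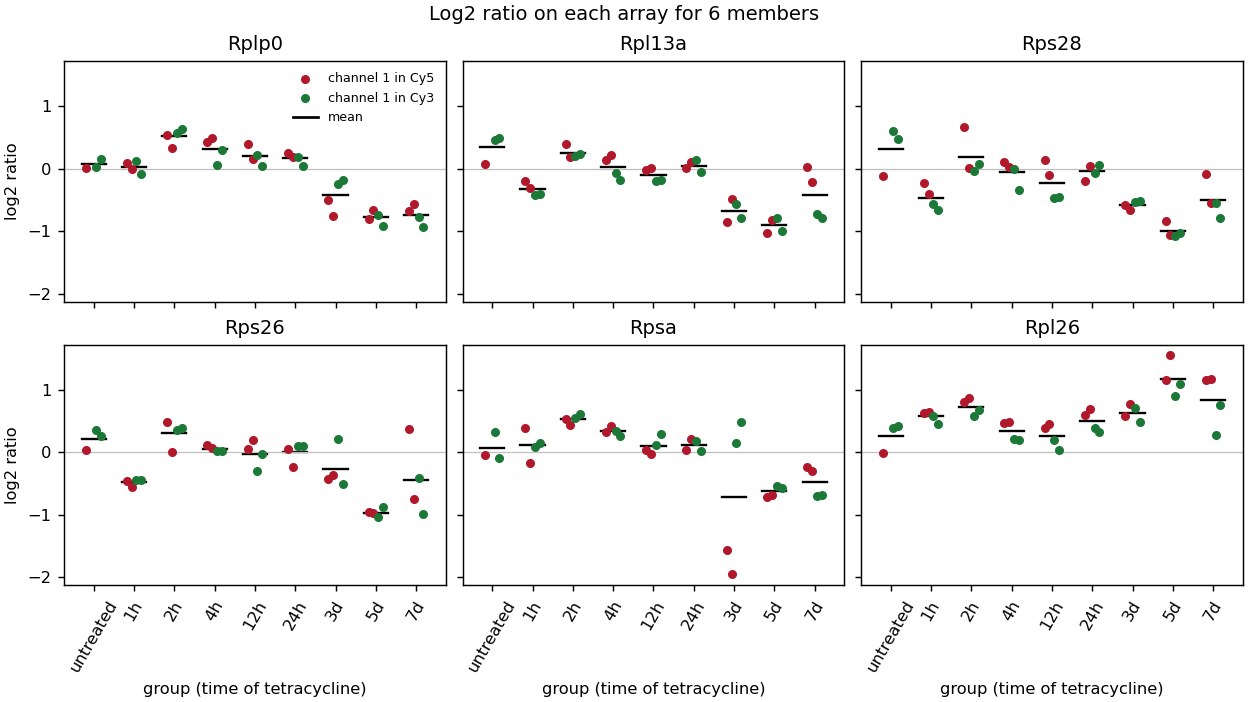
Log2 ratio of 6 members on each of the 35 arrays, by group, with the dye of the named sample in colour and the group mean as a line. Rplp0, Rpl13a, Rps28 and Rps26 are lowest at 5 days, Rpsa is split by dye at 3 days, and Rpl26 is highest at 5 days (0.89 to 1.55).

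Over all 8 times together, a moderated F-test called 15 of 56 members tested, while 5.09% of all 8151 genes tested were called. The 15 were Rpl13a, Rpl19, Rpl26, Rpl38, Rpl39, Rpl5, Rplp0, Rps10, Rps19, Rps20, Rps26, Rps28, Rps29, Rps7 and Rpsa. The count was 9 without 2h replicate 1 and 23 without 3d replicate 3. In these fits the share of all genes called was not counted, so the counts cannot be set against it. Rplp0 had the largest F, 24.3 (adjusted p = 4.94e-08, limma).

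The 2 dyes give a separate reading of each group. At 5 days the median of the members was -0.57 in Cy5 and -0.58 in Cy3, and 83.6% of 61 members had the same sign in both dyes, against 50.9% of all genes. The 5-day medians of the 60S and the 40S genes each differed between dyes, in opposite directions. At 2 h the medians were 0.21 and 0.26, and 87.1% of 62 members agreed in sign, against 59.6%. At 1 h 71% agreed, against 53.6%.

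At 3 days the dyes stood at -0.62 and -0.01, and 45.9% of members agreed in sign, against 37.8% of all genes. In the untreated group, with the Cy3 arrays turned, the correlations of these 2 with the one Cy5 array were -0.45 and -0.38 over all probes. With a dye effect fitted for each group, 10, 25 and 11 members fell at 3, 5 and 7 days, with 1.85%, 2.52% and 2.1% of all genes called.

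Members also varied together between arrays of 1 group. Over the 54 members with a value on all 35 arrays, the median correlation of pairs of members, taken on deviations from group means and dye, was 0.18, against 0.00 for all 6888 complete genes. It was 0.20 among 29 genes of the 60S subunit, 0.13 among 23 of the 40S subunit and -0.00 among 46 mitochondrial ribosomal protein genes. These points share arrays, centring and probe chemistry, and the part of these in the correlation was not tested.

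Of the 62 members, 38 had 1 probe and 24 had more, up to 5 for Rps21. At 5 days 23 genes had at least 2 probes with a difference, and in 15 of them all probes lay below 0. In the other 8 (Rpl4, Rpl6, Rpl8, Rpl22, Rpl30, Rpl34, Rps14 and Rps21) the probes lay on both sides, and in none of the 23 were all above 0. The median range between probes of a gene was 0.67.

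Rps14 was the most divided, with probes at -1.08 and 1.34, which cancelled in its gene mean of 0.13. The 5 probes of Rps21 gave -1.09, -1.03, -0.08, 0.44 and 0.62. Rpl4, of the large subunit, had probes at -1.22, -0.78 and 0.80. Gene means of such genes are no sound estimate of either probe, and it was not tested which probe reports the gene. Ribosomal protein genes have many processed pseudogenes with nearly the same sequence, and a share of pseudogene RNA in these ratios was not tested.

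**Figure D5:**
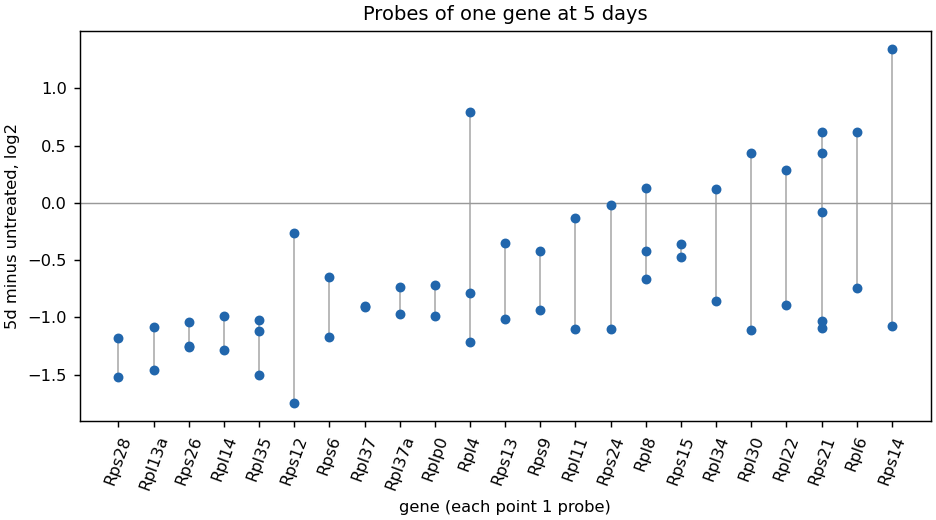
Log2 difference at 5 days from the untreated arrays for every probe of the 23 members with at least 2 measured probes, sorted by the gene's median. Lines join probes of a gene. The probes of Rps28, Rpl13a and Rps26 lie together below -1, and those of Rps14 lie 1 on each side of 0.

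Because the values of 5 and 7 days had been moved, the members whose probes all lie before the first slide point were also read alone. There were 14 of them, unmoved on all late arrays except 5d replicate 1. At 5 days 5 fell and 1 rose, with a median of -0.73, against 10 that fell of the 46 with a probe past that point and a median of -0.83, while 1.58% of all genes were called. Without 5d replicate 1 the same counts among the 14 were 5 and 1, with a median of -0.76 and 1.6% of all genes called. The deposited, unmoved values gave a median of -0.26 over all members at 5 days.

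Other genes of translation were read beside the members. Of 16 elongation factors and other genes with TOP mRNAs, 9 fell at 5 days and none rose by limma, with a median of -0.75, while 1.58% of all genes were called. They were the elongation factor subunits Eef1a1, Eef1b2 and Eef1d, the initiation factor subunit Eif3h, the growth-linked protein Tpt1, the nascent-chain subunit Naca, the nucleolar protein Npm1, the RNA-binding protein Hnrnpa1 and the filament protein Vim. At 7 days Eef1a1, Eif3h and Npm1 fell (1.07% of all genes called), and 10 of 16 fell late against early (4.23% of all genes called lower). At 2 h the median was 0.15, and none was called by limma (0.527% of all genes were).

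Of 42 genes of ribosome assembly on the array, 1 (Npm1) fell at 5 days of 40 tested (0.813% of all genes were called lower); the list's median was -0.15. Late against early, 7 of 35 fell, while 4.23% of all genes were called lower: Npm1, Fbl, Nop56, Nop58 and Ddx21, which act in the nucleolus, the polymerase I and III subunit Polr1d, and Wdr36. Their median at 2 h was 0.20. Fau, whose product is cleaved into a ubiquitin-like protein and RPS30, was at 0.67 at 2 h and -0.41 at 5 days and was not called at any time.

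The mitochondrial ribosomal proteins, which serve the separate ribosome of the mitochondrion, were called by limma at none of the 8 times, with 58 to 61 of 64 tested and 1 to 9 of them at an unadjusted p under 0.05. Their median at 5 days was -0.19, against -0.82 for the cytosolic members. Late against early 3 fell of 58 tested (Mrpl51, Mrps18c and Mrps5), a share near the 4.23% of all genes called lower. The difference between the 2 lists was not tested.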

How the data were processed

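The authors deposited 1 log2 ratio of the 2 channels per probe and array; scanner software, background correction and normalization are not given in the sources used here. Values above 12 (2807, at a ceiling) were set to missing, arrays centred on their median and Cy3 arrays multiplied by -1. In the 5- and 7-day arrays, values were moved back past 4 slide points (on 5d replicate 1 by 1 row more throughout) found by a likelihood search against the other arrays; 258 rows around them and at the end were left out. Probes were named through the platform's annotation (14030 with 1 symbol, 5 with several, left out), and averaged per gene.

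All 35 arrays entered 1 limma 3.58.1 fit (R 4.3.3) with group means and a common dye effect; at least 3 values per group were required, and p-values were adjusted (Benjamini-Hochberg) over all genes tested. The script was tested on simulated data. The members, the lists and the naming rule were chosen with earlier results of these data known. Named were members called in any comparison, the 3 highest and 3 lowest by mean difference over the 8 times, members chosen for their role, and members with several probes; paralogues and Rpl23 were added after their values were seen. The alternatives were other scalings, dye models, array weights, single arrays left out and a replicate block.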

Additional observations from a re-analysis of the deposited data

Results flagged for a closer look

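Late minus early tests a difference between the 2 parts of the course directly, and 25 members passed it by limma. The values on the log2 scale were -1.25 for Rpl39l, -0.94 for Rplp0 and Rpsa, -0.80 for Rps19, -0.79 for Rpl19, -0.74 for Rps20, -0.66 for Rpl13a, -0.62 for Rps29 and -0.61 for Rps16, Rpl32 and Rpl35. They were -0.58 for Rps28, -0.57 for Rpl38, -0.56 for Rpl27, -0.54 for Rps18, -0.52 for Rps26, -0.50 for Rpl5, -0.485 for Rpl13, -0.48 for Rps7, -0.47 for Rpl7a, -0.43 for Rps13, -0.40 for Rps10 and Rpl9, -0.37 for Rpl39 and 0.34 for Rpl26.

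In 18 of 345 groups of 4 arrays, 1 array lay far from the other 3 by Dixon's criterion, and chance alone sets apart about 1 in 20. At 1 h these were Rpl38 at -0.30 (replicate 3; others 0.12 to 0.20), Rpl39l at 2.98 (replicate 3; others 0.12 to 0.54) and Rpl9 at -0.40 (replicate 1; others -0.50 to -0.49). At 2 h Rps28 stood at 0.67 and Rps3a1 at 0.48, both on replicate 1, with the other arrays of either gene between -0.03 and 0.08. At 4 h Rpl11 stood at -0.23 (replicate 4; others 0.73 to 0.87), and at 12 h Rpl22 at -0.84 (replicate 4; others near -0.28).

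At 24 h the arrays were Rpl36al at 2.82, Rps20 at 0.19 and Rps21 at -0.39, all on replicate 3, and Rps26 at -0.24 on replicate 2. At 3 days Rpl6 stood at 1.66 (replicate 4; others -0.02 to 0.26) and Rps21 at 0.48 (replicate 3; others -0.30 to -0.21). At 5 days Rpl9 stood at -0.83 (replicate 4; others -0.56 to -0.53), Rpl22l1 at -3.77 (replicate 2; others -0.48 to -0.17) and Rps6 at -0.88 (replicate 1; others -0.45 to -0.37). At 7 days Rps7 stood at -0.12 and Rps19 at 0.52, both on replicate 3, where the other 3 arrays were between -0.56 and -0.48 for Rps7 and between -0.80 and -0.61 for Rps19.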

How the results depend on the processing

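Without turning the Cy3 arrays the direction is lost: the members' median becomes 0.24, 0.22, 0.13, 0.15 and 0.34 at 1 h, 12 h, 24 h, 5 days and 7 days, 0.25 at 4 h, -0.065 at 3 days and 0.011 late minus early, with 4 member calls over the 8 times and 0 by the F-test (limma) or late minus early (8 and 11 at an unadjusted p under 0.05). Of all genes, 5.14% were called there by the F-test and 2.37% late minus early. The sign of the following called genes turned. At 3 days the values became 0.37 (Rpl13a) and 0.45 (Rps28), at 7 days 0.70 (Rpl13a), 0.77 (Rpl19), 0.20 (Rplp0) and 0.67 (Rps28). At 5 days they became 0.35 (Rpl13a), 0.61 (Rpl19), 0.63 (Rpl31), 0.41 (Rpl36a), 0.53 (Rpl38), 0.59 (Rpl39), 0.67 (Rpl5), 0.13 (Rplp0), 0.09 (Rps10), 0.41 (Rps20), 0.26 (Rps26), 0.55 (Rps28), 0.16 (Rps29), 0.41 (Rps3a1) and 0.35 (Rps7). Late minus early they became 0.019 (Rpl13a), 0.11 (Rpl27), 0.10 (Rpl35), 0.083 (Rpl38), 0.69 (Rpl39l), 0.023 (Rpl5), 0.23 (Rpl7a), 0.35 (Rps18), 0.039 (Rps20) and 0.061 (Rps26). With the 5- and 7-day values as deposited the medians were -0.26, -0.33 and -0.15 at 5 days, 7 days and late minus early, the calls 3 over the 8 times, 5 by the F-test and 4 late minus early. Signs turned at 5 days for Rpl31 (0.86), Rplp0 (0.57), Rps10 (0.11) and Rps28 (0.025), at 7 days for Rplp0 (0.13), and late minus early for Rpl27 (0.25), Rpl32 (0.019), Rps10 (0.001) and Rps28 (0.067). Not centring gave -0.53, -0.15, -0.44, -0.39, -1.04 and -0.76 at 1 h, 2 h, 12 h, 24 h, 5 days and 7 days. The median of all genes then shifted to between -0.24 and -0.12 at the 8 times. Calls were 12, 7 and 14 over the 8 times, by the F-test and late minus early. Of all genes, 0.0218% to 0.824% were called at single times and 3.91% late minus early. Quantile normalization gave -0.56 at 1 h and -0.37 at 24 h, and Rpl26 late minus early turned to -0.11. Against 0, the medians were -0.17, -0.086, -0.039, -0.30, -0.63 and -0.32 at 1 h, 12 h, 24 h, 3 days, 5 days and 7 days, with 57 calls over the 8 times and 25 by the F-test. There 0.347% to 5.49% of all genes were called at single times. A dye effect per group gave 52 and 28 calls, with 0.0874% to 2.52% of all genes called at single times. Array weights gave 86 and 27, with medians of -0.70 at 3 days and -0.65 at 7 days. Under array weights 0.705% to 8.13% of all genes were called at single times, against 0.0218% to 1.58% in the main fit. Fits on only the 2 groups compared gave 0 over the 8 times by limma. Probes taken singly gave 57, 32 and 42. For the values as deposited, single probes and the F-test in these fits, the share over all features was not counted. Cy5 arrays alone, chosen after seeing the data, gave -0.18, 0.21, -0.065, -0.64, -0.61 and -0.19 at 1 h, 2 h, 12 h, 3 days, 5 days and 7 days, and Cy3 arrays alone -0.58, -0.30 and -0.75 at 1 h, 3 days and 7 days. The causes were not tested.

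Leaving out 1 array gave 10 to 45 calls over the 8 times, 9 to 23 by the F-test and 23 to 29 late minus early. The 10 came without untreated replicate 4, with 0.0314% to 0.67% of all genes called at single times. The 45 came without untreated replicate 1, with 1.34% to 4.29%. For the F-test and late minus early these shares were not counted. Of the 47 calls of genes, 33 held in every such fit that tested them. Among the 33, Rpl39l late minus early was not tested without 3d replicate 2, 3 or 4. A wider band left out at the slide points, also chosen after seeing the data, cost 1 call (Rpl35, late minus early) and left Rpl38 and Rplp0 untested. Deviations from group means and dye correlated at -0.20 to 0.17 between arrays of the same replicate number. Dye goes with the replicate number and was taken out, so this cannot tell whether the numbers pair the arrays. A fit with the replicate number as a block gave 20, 10 and 25 calls, with 0.0218% to 1.39% of all genes called at single times. Keeping values above 12, at least 2 values per group, medians over probes, the strict list and separate untreated replicates 1 and 2 left every median within 0.144 (the pooled SD between arrays) and every count within 1.5 times. The main limits are the assumed direction, 3 untreated arrays that disagree by dye and late arrays of wide spread.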
